A study of Mus musculus with 5 samples.

Results

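The genes described here are 10 transcription factors that mark or maintain the somatic cell types of the ovary: Foxl2, Nr5a1, Nr5a2, Gata4, Gata6, Wt1, Runx1, Lhx9, Tcf21 and Nr2f2. They were taken by symbol from the 31053 genes of the tables, and all 10 were found in all 5 libraries. The libraries hold dissociated ovarian cells of untreated C57BL6/J mice at 2, 3, 4, 5 and 6 wk of age, with 1 library per age, sorted as live cells and sequenced from the 3′ end of the transcripts. The study used them to follow the first wave of follicles, which grows from birth and is remodeled before puberty, and set 2 wk against 5 wk. The number of animals behind a library is not given in the sources used here, so no library can be read as 1 mouse, and no age has a second library.

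Granulosa cells surround the oocyte and pass with it through primordial, primary, secondary and antral stages, while theca, stromal, smooth muscle and surface epithelial cells build the rest of the ovary. The factors in this set are known from the making of the gonad and from the keeping of cell identity. Wt1, Gata4, Lhx9 and Nr5a1 act in the early gonadal ridge, Foxl2 and Runx1 in the supporting cells that become granulosa, Nr5a1 and Nr5a2 at the genes for steroid synthesis, and Tcf21 and Nr2f2 in mesenchyme.

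The tables hold counts of unique molecular identifiers (UMIs), 1 per captured RNA molecule. The 5 libraries held 7779 to 11077 cells, 48163 in all, with library medians of 9056 to 12424 UMIs per cell and totals of 93438618 to 144609431 UMIs. Pairs of libraries shared 18 to 35 cell barcodes. Cells were clustered without the 10 factors, and a class was named "-like" from a marker list. The main classes were granulosa-like (18287 cells), stromal-like (13896), smooth muscle-like (4133), theca-like (1241), pericyte-like (861), blood endothelial-like (713), hematopoietic-like (496) and surface epithelial-like (323), and 7893 cells stayed unnamed. The summed level of the 12 granulosa markers was 8003 to 10148 counts-per-million (CPM) in granulosa-like cells and 349 to 477 CPM in stromal-like cells, and all 8 surface epithelial markers were detected in surface epithelial-like cells, where they summed to 6486 to 8073 CPM.

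A level below is a CPM value, the UMI count of a gene scaled by all UMIs of that class in that library. Where 5 levels stand in a row they are those at 2, 3, 4, 5 and 6 wk, in that order. Since each library is an age, the SD over libraries holds age and library together. Classes were compared on counts summed per library and class with edgeR's quasi-likelihood test with the library as a block, and p-values were adjusted by the Benjamini-Hochberg method over all genes tested. A gene was called where the adjusted p was under 0.05 and the log2 fold change at least 1 in size. Free RNA gives some UMIs of abundant genes in every cell. Hematopoietic-like cells, in which Runx1 and, in some macrophages, Gata6 are known factors, give a rough guide to that level for the other members. Their median depth was 6656 UMIs, against 14852 in granulosa-like and 17555 in theca-like cells. Their CPM is therefore no like-for-like measure of free RNA in deeper classes.

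Upstream sequence from RefSeq (GRCm38.p6) was at hand for 6 of the 10 genes, Nr5a2, Lhx9, Nr2f2, Foxl2, Tcf21 and Runx1. Those of 250 bases that hold no annotated exon are shown for 2 genes, both starts of Nr5a2 because it is the factor that separated granulosa-like from stromal-like cells most on the high side, and Nr2f2 because it lay on the low side. They end 1 base before the start and run 5′ to 3′ on the strand of the gene, and capitals mark a match to the GATA motif AGATAA or its reverse complement TTATCT.
Nr5a2 start 1, chr1:136960449-136960698, minus strand: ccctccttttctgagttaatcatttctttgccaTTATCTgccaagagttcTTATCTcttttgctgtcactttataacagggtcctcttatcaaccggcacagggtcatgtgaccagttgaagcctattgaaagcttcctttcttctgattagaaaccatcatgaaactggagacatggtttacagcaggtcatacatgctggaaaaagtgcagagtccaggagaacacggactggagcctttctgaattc
Nr5a2 start 2, chr1:136953631-136953880, minus strand: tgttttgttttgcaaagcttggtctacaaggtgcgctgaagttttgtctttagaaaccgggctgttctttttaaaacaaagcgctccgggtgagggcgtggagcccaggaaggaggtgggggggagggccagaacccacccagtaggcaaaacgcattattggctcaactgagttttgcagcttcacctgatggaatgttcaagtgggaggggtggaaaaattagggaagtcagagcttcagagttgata
Nr2f2, chr7:70366747-70366996, minus strand: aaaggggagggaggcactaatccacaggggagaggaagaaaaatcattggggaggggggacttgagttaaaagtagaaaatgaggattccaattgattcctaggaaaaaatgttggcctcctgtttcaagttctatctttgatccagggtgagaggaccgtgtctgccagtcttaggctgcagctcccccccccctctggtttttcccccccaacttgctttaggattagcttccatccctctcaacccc
The first start of Nr5a2 held 2 GATA matches, at 217 to 212 and 200 to 195 bases before the start. Tcf21 held 1, at 31 to 26 bases before its RefSeq start, in the stretch tctctattccccAGATAAattcttagtgtc. The Tcf21 match lies within the 31 bases of its stretch that are annotated exon, and the Foxl2 stretch is annotated exon over all 250 bases. Of 32851 mouse promoter stretches of the same length, 9.99% (3281) held the GATA motif. Searched on both strands, AAGGTCA (for NR5A factors, in 1340 promoters), TAAACA (forkhead, in 3952), CAGCTG (E-box, in 4271), TGTGGT (Runt, in 4614) and TAATTA (LIM homeodomain, in 1590) had no match in the 6 genes' stretches. A match describes the letters and is not evidence of binding.

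In the mouse genome (build GRCm38) the 10 genes lie apart from one another, and all are protein coding. Foxl2 spans chr9:98955288-98958543 on the plus strand, Gata6 chr18:11052064-11085635 on the plus strand and Wt1 chr2:105126529-105173616 on the plus strand. On the minus strand lie Nr5a1 (chr2:38692656-38714542), Nr5a2 (chr1:136842571-136960448), Gata4 (chr14:63198922-63271692), Runx1 (chr16:92601466-92826149), Lhx9 (chr1:138825186-138848577), Tcf21 (chr10:22817281-22820174) and Nr2f2 (chr7:70351944-70366735). Of the 10, 6 overlap a gene on the opposite strand. Where that partner was in the tables it held 144 UMIs against 18682 for Nr5a1, 3423 against 70365 for Gata6, 17 against 45671 for Runx1 and 374 against 54795 for Tcf21. Whether the counting used the strand is not given in the sources used here, so reads of the overlap cannot be assigned.

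Nr5a2, also called LRH-1, is a nuclear receptor that granulosa cells need for ovulation, and its level set granulosa-like cells apart from every other class. It was 342, 464, 421, 382 and 531 CPM in granulosa-like cells and 8.56, 12, 14.98, 8.16 and 14.8 CPM in stromal-like cells. The lowest granulosa-like library was above the highest of any other class, and within a library the ratio of granulosa-like to stromal-like cells ran from 28.1 to 46.8 (log2 fold change 5.09 ± 0.29 (SE), adjusted p = 3.14e-18). Hematopoietic-like cells stood at 66.5 ± 21.4 CPM (SD, n = 5), above theca-like (29.7 ± 10.9 CPM) and about the level of surface epithelial-like cells (52.8 ± 28.2 CPM). After each cell was thinned to 3000 UMIs, 62.3% of granulosa-like cells held an Nr5a2 UMI (unthinned median depth 14852 UMIs), against 9.5% of hematopoietic-like cells (median depth 6656 UMIs) and 2.9% of stromal-like cells.

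Between granulosa-like and stromal-like cells, 2 of the 10 factors were called higher and 3 lower, where 11.7% of the 13882 genes tested were called higher and 17.5% lower (29.2% in either direction). The median log2 fold change of the 10 was 0.34 against 0.02 over all genes. Nr5a2 and Gata6 were higher. Lhx9, Nr2f2 and Tcf21 were lower. Foxl2, the forkhead factor that keeps granulosa cells from turning towards the testicular fate, was not among the called genes (log2 fold change 0.23 ± 0.22 (SE), adjusted p = 0.366). Its level was 401, 166, 87.2, 147 and 182 CPM in granulosa-like cells and 161, 109, 121, 105 and 190.4 CPM in stromal-like cells, so the 2 wk granulosa-like cells lay above all stromal-like values while at 4 and 6 wk stromal-like cells had the higher level. Foxl2 in smooth muscle-like cells was 112 ± 22.1 CPM, against 46.9 ± 28.8 CPM in hematopoietic-like cells, where the smooth muscle-like range (93.97 to 141 CPM) met only the 2 wk library of the hematopoietic-like range (27.1 to 96.9 CPM). The thinned share of cells with a Foxl2 UMI was 37.0% in granulosa-like, 32.5% in stromal-like and 27.7% in smooth muscle-like cells, and 5.4% in hematopoietic-like cells.

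**Figure D1:**
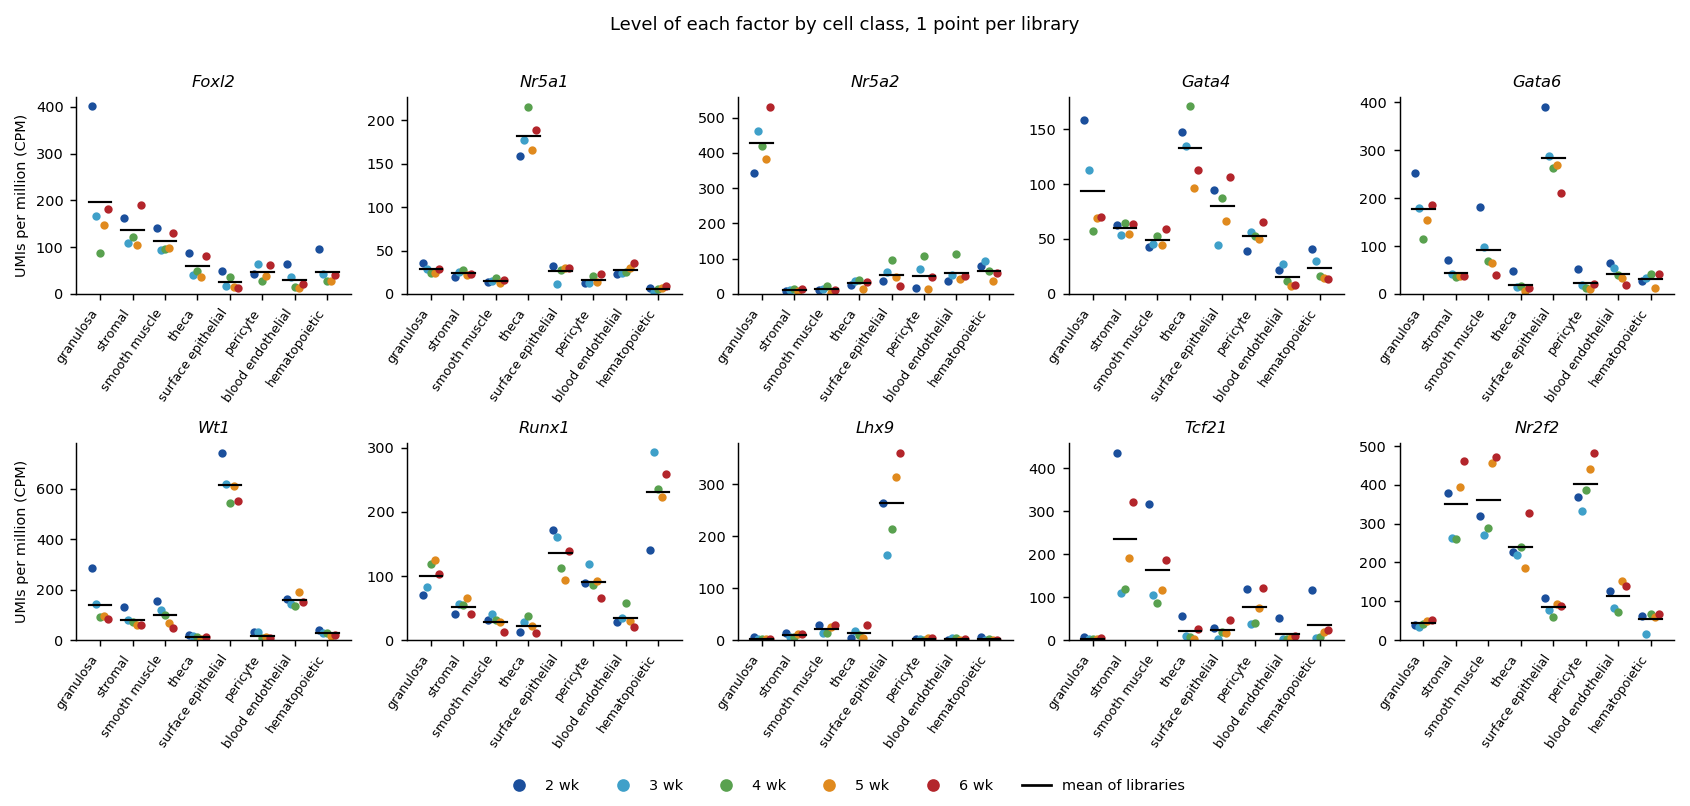
Level of each of the 10 factors in counts-per-million (CPM, vertical axis, linear, from 0) in 8 cell classes (horizontal axis), with 1 point per library coloured by age and a black bar at the mean of the 5 libraries. Nr5a2 stands high in granulosa-like cells alone (342 to 531 CPM), Nr5a1 in theca-like cells (159 to 216 CPM), and Wt1 and Lhx9 in surface epithelial-like cells.

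The GATA factors are zinc finger proteins that act with the cofactor Zfpm2 in the gonad. Gata6 was 253, 179.8, 116, 154 and 186 CPM in granulosa-like cells and 70.4, 42.3, 34.4, 36.7 and 36.8 CPM in stromal-like cells, with no overlap between the classes (log2 fold change 1.88 ± 0.22 (SE), adjusted p = 2.16e-09). Gata4 was 158, 113, 57.3, 68.9 and 70.2 CPM against 62.8, 53.6, 64.6, 54.2 and 63.9 CPM, and was not called (log2 fold change 0.45 ± 0.20 (SE), adjusted p = 0.0555). The granulosa-like level of Gata4 was above the stromal-like level in 4 of the 5 libraries and below it at 4 wk. Runx1, a Runt-domain factor of blood and of supporting cells, was higher in granulosa-like than in stromal-like cells in 5 of 5 libraries, by 1.49 to 2.5 times, but its log2 fold change of 0.81 ± 0.20 was under the limit for a call (adjusted p = 0.000596). Wt1 behaved likewise, with a log2 fold change of 0.55 ± 0.22 (adjusted p = 0.0285). Nr5a1 was not called (log2 fold change 0.12 ± 0.16 (SE), adjusted p = 0.513), at 28.6 ± 4.92 CPM in granulosa-like and 23.6 ± 2.96 CPM in stromal-like cells, both above the 6.1 ± 2.32 CPM of hematopoietic-like cells, the lowest class. Blood endothelial-like (27.6 ± 5.05 CPM) and surface epithelial-like cells (26.6 ± 8.36 CPM) stood at about the granulosa-like level.

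Tcf21, a basic helix-loop-helix factor of mesenchymal progenitors, and Nr2f2, the orphan receptor COUP-TFII of mesenchyme and veins, were the stromal members of the set. Tcf21 was 436, 110.3, 118, 191 and 322 CPM in stromal-like cells and 6.34, 1.59, 1.24, 1.22 and 3.9 CPM in granulosa-like cells (log2 fold change -6.63 ± 0.32 (SE), adjusted p = 1.14e-20). The granulosa-like level was below that of hematopoietic-like cells in each library. Nr2f2 was 378, 264, 261, 395 and 461 CPM in stromal-like cells and 38.4, 33.5, 40.2, 48.5 and 52.8 CPM in granulosa-like cells (log2 fold change -3.18 ± 0.17 (SE), adjusted p = 1.70e-19). It was as high in pericyte-like (402 ± 59.7 CPM) and smooth muscle-like cells (361 ± 95.3 CPM), and in the 4 libraries with at least 20 lymphatic endothelial-like cells it was 372 ± 151 CPM (SD, n = 4). The ranges of these 4 classes overlapped. The granulosa-like mean of 42.7 CPM was below the hematopoietic-like mean of 54.5 CPM. The thinned share of cells with an Nr2f2 UMI had the opposite order. It was 11.6% in granulosa-like cells (exact interval 11.2% to 12.1%) and 6.8% in hematopoietic-like cells (4.4% to 9.8%). These shares pool the cells of all libraries, so the intervals leave out the spread between libraries and do not test the classes. Whether free RNA gave the granulosa-like level was not tested.

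Theca-like cells stand for the androgen-making theca and interstitial gland cells, which the study takes together. They differed from stromal-like cells in 8 of the 10 factors, 3 higher and 5 lower. Of all genes, 7.59% were called higher and 14.5% lower (22.1% in either direction). The median log2 fold change of the 10 was -0.93 against -0.05 over all genes. Nr5a1, or SF-1, which switches on the genes of steroid synthesis, was 159, 178, 216, 166 and 189 CPM in theca-like cells against 19.7, 25.4, 27.4, 22.04 and 23.5 CPM in stromal-like cells, a ratio of 6.996 to 8.05 within libraries (log2 fold change 2.90 ± 0.17 (SE), adjusted p = 7.19e-17). No other class reached the lowest theca-like library. Gata4 was also higher, at 147, 134, 171, 96.8 and 113 CPM (log2 fold change 1.08 ± 0.21 (SE), adjusted p = 3.78e-05). Gata6, which shares its DNA motif, went the other way (log2 fold change -1.46 ± 0.26 (SE), adjusted p = 9.03e-06) and stood at 19.6 ± 16.6 CPM. Tcf21 (-4.02 ± 0.31 on the log2 scale), Wt1 (-2.97 ± 0.28), Foxl2 (-1.32 ± 0.23) and Runx1 (-1.28 ± 0.22) were lower in theca-like cells in 5 of 5 libraries, with adjusted p-values of 7.21e-14, 1.30e-11, 1.04e-05 and 8.37e-06.

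Nr5a2 was the third factor called higher in theca-like cells (log2 fold change 1.22 ± 0.28 (SE), adjusted p = 0.000437), yet at 25.9, 36.8, 40.4, 12.9 and 32.7 CPM it lay below the hematopoietic-like libraries in each of the 5 pairs. The 12 granulosa markers summed to 850 to 1199 CPM in theca-like cells and to 741 to 1614 CPM in hematopoietic-like cells. The call was lost without the cells that Scrublet called doublets (log2 fold change 0.83), and without one mesenchymal cluster led by Amh and Nr5a2, of which 48.9% were called doublets, the direction turned (-0.43). Late theca-like cells of the second clustering had 7.43 ± 3.68 CPM.

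Surface epithelial-like cells form the single layer that covers the ovary, and 8 of the 10 factors were called against stromal-like cells, 5 higher and 3 lower, where 14.3% of all genes were called higher and 11.4% lower (25.6% in either direction), with a median log2 fold change of 0.68 against -0.10. Scaling by total UMIs, or DESeq2, moved the split of all calls from 1980 higher and 1577 lower to 2473 and 1128, or 2620 and 1331, and left the 5 and 3 factors. Lhx9, a LIM homeobox factor of the early gonadal epithelium, was 264, 163, 214, 314 and 360.1 CPM, against 12.9, 4.99, 6.12, 12.2 and 12.1 CPM in stromal-like cells (log2 fold change 4.55 ± 0.36 (SE), adjusted p = 7.71e-14). Its next highest class, smooth muscle-like, reached 21.7 ± 7.82 CPM. Wt1, the zinc finger factor without which no gonad forms, was 742, 621, 544, 612 and 551 CPM (log2 fold change 2.74 ± 0.24 (SE), adjusted p = 1.58e-12), and all 5 libraries lay above those of every other class with 5 libraries. Thinned to 3000 UMIs, 50.8% of surface epithelial-like cells held an Lhx9 UMI and 81.4% a Wt1 UMI (median depth 8803 UMIs), against 0 of 370 hematopoietic-like cells for Lhx9 (exact 95% interval up to 0.992%) and 3.2% for Wt1. The rete ovarii-like cells, 91 in all and at least 20 at 2 and 3 wk only, had 575 and 482 CPM of Wt1 at those ages but 1 and 0 UMIs of Lhx9, where the count of 0 allows up to 10.3 CPM.

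Gata6 was also higher in the epithelium, at 391, 288, 262, 269 and 210.4 CPM (log2 fold change 2.45 ± 0.24 (SE), adjusted p = 3.99e-11), and so was Runx1, at 171, 160.4, 113, 93.9 and 138 CPM (log2 fold change 1.19 ± 0.22 (SE), adjusted p = 2.77e-05). The Runx1 log2 fold change was 0.89 without the 2 wk library. Gata4 was not called (log2 fold change 0.18 ± 0.24 (SE), adjusted p = 0.591), and neither was Nr5a1 (log2 fold change 0.02 ± 0.22 (SE), adjusted p = 0.967). Foxl2 (-2.70 ± 0.31, adjusted p = 2.14e-09), Tcf21 (-3.78 ± 0.37, adjusted p = 4.07e-11) and Nr2f2 (-2.27 ± 0.18, adjusted p = 1.63e-13) were lower. Foxl2 stood at 26.1 ± 15.9 CPM in the epithelium, the lowest mean of the 8 main classes. Nr5a2 was called higher (log2 fold change 1.88 ± 0.34 (SE), adjusted p = 1.32e-05) at a mean below that of hematopoietic-like cells, and the granulosa markers summed to 1212 to 2197 CPM in surface epithelial-like cells, of which 6.81% were called doublets.

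**Figure D2:**
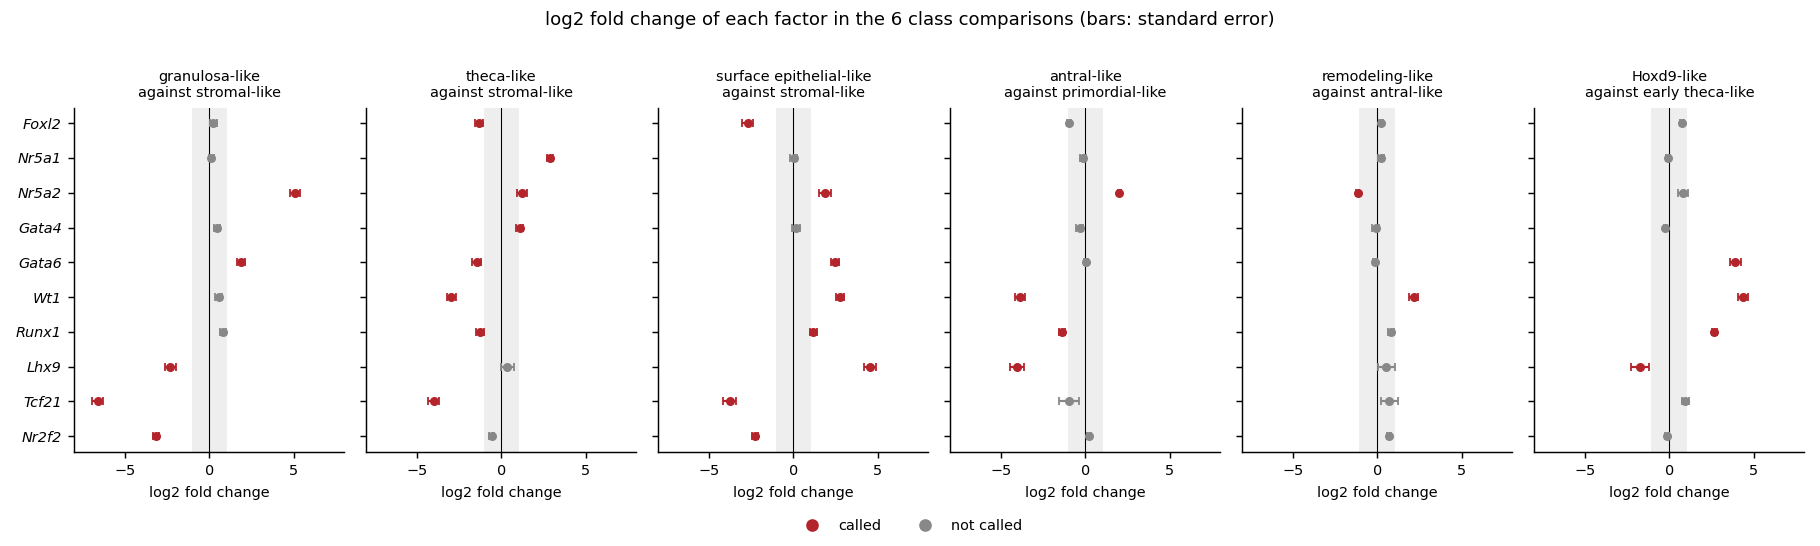
log2 fold change (horizontal axis, points, with the standard error as bars) of each factor (vertical axis) in 6 comparisons of classes, red where called and grey where not, with a grey band at changes under 1 in size. Nr5a2 and Tcf21 lie at opposite ends of the granulosa-like comparison (5.09 and -6.63), and Nr5a1 leaves the band only in the theca-like comparison (2.90).

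Runx1 and Wt1 also had high levels outside the follicle and stroma. Runx1, a factor of blood formation, had its highest mean in hematopoietic-like cells, at 141, 293, 236, 223 and 259 CPM, and that range met the surface epithelial-like one. Wt1 was 164, 144, 136, 189 and 152 CPM in blood endothelial-like cells, above the 39.4, 27.8, 27.1, 17.5 and 21.7 CPM of hematopoietic-like cells in each library. In those endothelial cells the surface epithelial markers summed to 1.79 to 27.5 CPM, with Upk1b, Muc16, Msln and Krt7 at 0, and the granulosa markers to 546 to 1584 CPM. The thinned share with a Wt1 UMI was 36.6% of blood endothelial-like cells, and it was 0 of 192 lymphatic endothelial-like cells (exact 95% interval up to 1.9%). Unthinned, 5.24% of the 229 lymphatic endothelial-like cells held a Wt1 UMI, and their mean level was 12.1 ± 9.58 CPM (SD, n = 4).

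Within the granulosa-like cells a second clustering gave groups named primordial-like (792 cells), primary-like (2686), primary/secondary-like (1906), antral-like (1861), remodeling-like (3173, named after the study's markers of remodeling follicles) and mitotic-like (2966), and 4903 cells stayed unnamed. From primordial-like to antral-like cells, 1 factor was called higher and 3 lower, where 8.07% of the 12431 genes tested were called higher and 11.8% lower (19.9% in either direction). The median log2 fold change of the 10 was -0.65. Nr5a2 rose, from 155, 179.5, 198, 158 and 206 CPM in primordial-like cells to 760.2, 627, 529, 594 and 769 CPM in antral-like cells (log2 fold change 2.02 ± 0.11 (SE), adjusted p = 1.97e-13). The groups between them held 331 ± 57.1 CPM (primary-like) and 490.3 ± 81.2 CPM (primary/secondary-like), so the libraries of these 3 groups did not overlap, while primary/secondary-like and antral-like libraries did. Merged without integration, the primary/secondary-like mean of Nr5a2 was 395 CPM, below the highest primary-like library of the main clustering (405 CPM).

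Wt1 fell from 565, 319, 348, 419 and 417 CPM in primordial-like cells to 62.99, 14.01, 32.4, 21.2 and 11.7 CPM in antral-like cells (log2 fold change -3.88 ± 0.29 (SE), adjusted p = 2.48e-11). Primary-like cells kept 294 ± 36.6 CPM and primary/secondary-like cells 175 ± 35.2 CPM, and the latter mean was 266 CPM when the libraries were merged without integration. Lhx9 was seen in granulosa-like cells mainly in the primordial-like group, at 42.6, 26.4, 22.9, 14.1 and 15.4 CPM, against 1.29 ± 0.724 CPM in antral-like cells (log2 fold change -4.02 ± 0.41 (SE), adjusted p = 8.78e-09). Every primordial-like library was above the highest library of each other named granulosa group. Runx1 was 133, 195, 223, 326 and 199.7 CPM in primordial-like and 41.3, 36.04, 133, 97.3 and 74.5 CPM in antral-like cells (log2 fold change -1.38 ± 0.18 (SE), adjusted p = 6.20e-07).

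Foxl2 was just under the fold limit for a call between the same groups. Its level was 429.7, 245, 195, 299 and 288 CPM in primordial-like cells and 283, 109.5, 58.8, 125 and 158 CPM in antral-like cells, lower in 5 of 5 libraries, with a log2 fold change of -0.97 ± 0.13 (adjusted p = 1.01e-06). The change passed the fold limit with total UMI scaling (-1.10) and without the 2 wk library (-1.08). Primary-like cells had the highest mean, 359 ± 98.7 CPM. Gata4 and Nr5a1 also had their highest granulosa mean in primary-like cells (158 ± 25.8 CPM and 38.4 ± 1.22 CPM). Merged without integration, the Foxl2 mean of primary/secondary-like cells was 353 CPM (against 220 CPM). The Nr5a1 mean of primary-like cells was then 29.8 CPM. From primordial-like to antral-like cells Gata4 (-0.33 ± 0.21, adjusted p = 0.195), Gata6 (0.04 ± 0.15, adjusted p = 0.863), Nr5a1 (-0.15 ± 0.20, adjusted p = 0.561) and Nr2f2 (0.23 ± 0.13, adjusted p = 0.16) were not called.

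Remodeling-like cells differed from antral-like cells in 2 factors, 1 in each direction, where 8.42% of all genes were called higher and 5.5% lower (13.9% in either direction), with a median log2 fold change of 0.38 against 0.02. Wt1 was higher than in antral-like cells, at 222, 151, 113, 86.8 and 64.5 CPM (log2 fold change 2.15 ± 0.28 (SE), adjusted p = 4.86e-07), and under the 414 CPM mean of primordial-like cells. Its remodeling-like mean of 127 ± 61.8 CPM lay below the 175 ± 35.2 CPM of primary/secondary-like cells, with overlapping ranges. The study's trajectory leads to remodeling follicles from the secondary stage and not through antral ones. Nr5a2 was lower, at 268, 360, 274, 263 and 353 CPM (log2 fold change -1.17 ± 0.11 (SE), adjusted p = 2.03e-09). Nr2f2 was 68.2, 61.7, 55.9, 66.3 and 82.3 CPM against 41.3, 50.6, 33.4, 39.5 and 43 CPM, higher in 5 of 5 libraries and under the fold limit (log2 fold change 0.67 ± 0.11, adjusted p = 2.65e-05). Runx1 had a log2 fold change of 0.83 ± 0.18 (adjusted p = 0.000564), which was 1.16 without the 4 wk library. Foxl2 was not called (log2 fold change 0.22 ± 0.13 (SE), adjusted p = 0.17). The 2 and 3 wk libraries held only 74 and 126 remodeling-like cells.

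**Figure D3:**
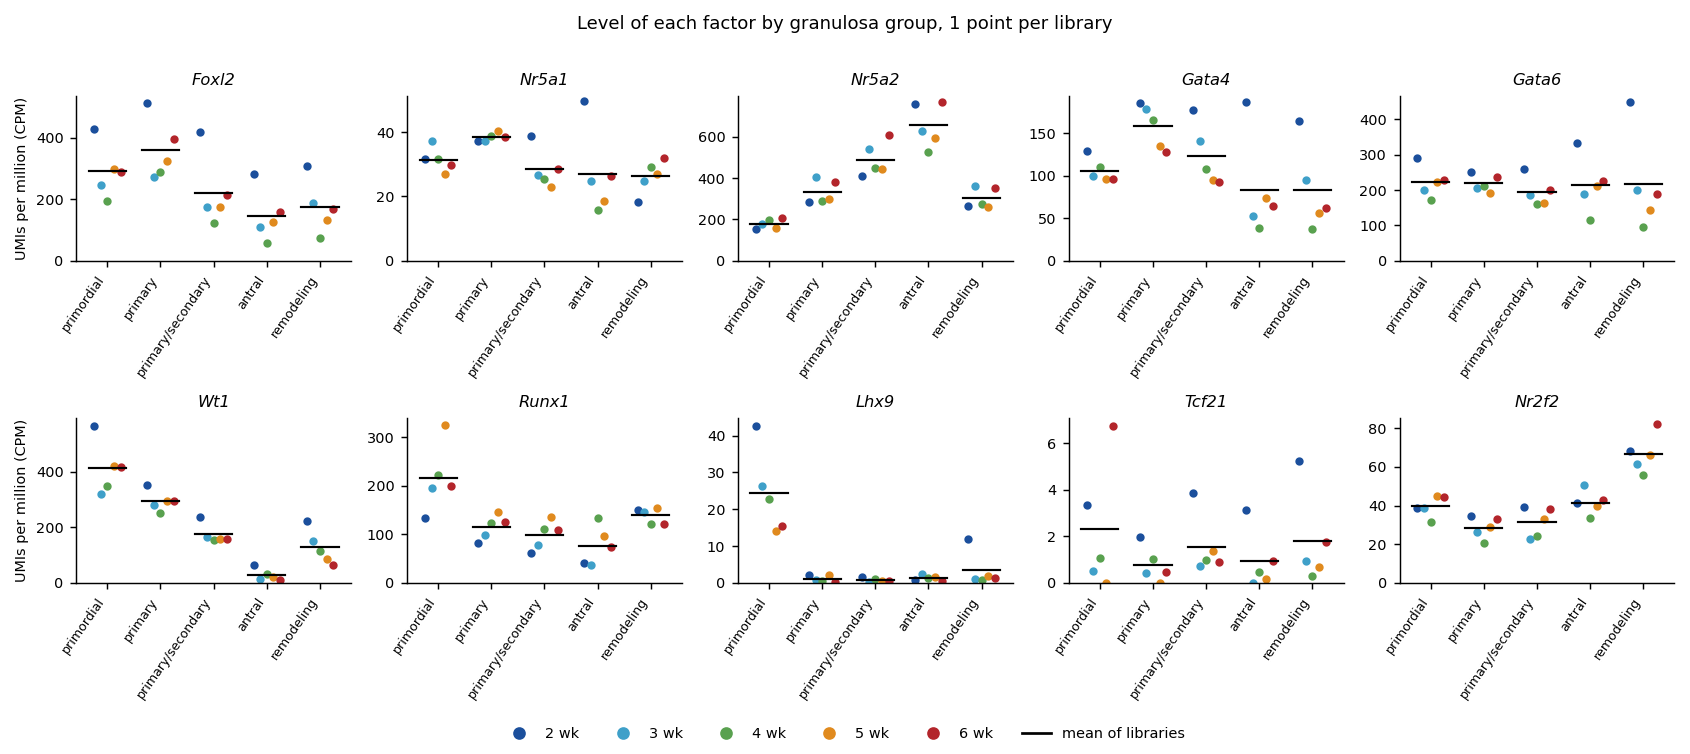
Level of each factor in counts-per-million (CPM, vertical axis, linear, from 0) in 5 granulosa groups (horizontal axis), 1 point per library coloured by age, with a black bar at the mean. Nr5a2 goes up from primordial-like (155 to 206 CPM) to antral-like cells (529 to 769 CPM) while Wt1 goes down (319 to 565 and 11.7 to 62.99 CPM), and Lhx9 is present mainly in primordial-like cells.

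The granulosa clusters g13 and g2, which kept no stage name, had Nr5a2 levels near or above those of antral-like cells. The cluster with Ntng1 and Nppc among its leading genes (484 cells) held 863, 1043, 1078 and 1282 CPM at 2, 4, 5 and 6 wk, the 4 ages with at least 20 cells, with Wt1 at 34.7 ± 31.3 CPM and Runx1 at 40.1 ± 13.5 CPM. The cluster led by Vpreb3, Pid1, Itih5 and Tex14 (1694 cells) held 617, 745, 544, 477 and 613 CPM of Nr5a2 and 244, 82.9, 41.9, 69.9 and 100.1 CPM of Foxl2. Its Foxl2 mean was below that of each named granulosa group.

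The cells of the stroma, of smooth muscle and of theca were clustered again as mesenchyme, and the groups bear the name of a leading gene or of a stage of theca: Hoxd9-like (2348 cells), Cxcl12-like (4023), Tagln-like (4035, smooth muscle), Cd24a-like (1645), Col11a1-like (1148), Col14a1-like (728), early theca-like (1969), late theca-like (907) and mitotic-like (975). The Hoxd9-like group had the highest mean of Foxl2, Wt1, Runx1, Gata6 and Tcf21 among the mesenchymal groups. Foxl2 there was 292, 213, 233, 229 and 297 CPM, a mean of 253 CPM against a granulosa-like mean of 197 CPM. At 2 wk the order was reversed, with 401 CPM in granulosa-like cells. The primary-like (359 CPM) and primordial-like (291 CPM) means also lay above the Hoxd9-like mean. Nr5a2 was 9.34 ± 5.63 CPM in Hoxd9-like cells, and the 12 granulosa markers summed to 360 to 599 CPM there. Wt1 was 397, 322, 394, 344 and 285 CPM, all libraries above the highest of any other mesenchymal group (266 CPM, in Col14a1-like cells at 5 wk). Surface epithelial markers summed to 2.00 to 7.49 CPM in the group.

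The Hoxd9-like group was tested against early theca-like cells, where 3 factors were called higher and 1 lower, against 7.21% of the 12453 genes tested called higher and 4.37% lower (11.6% in either direction). The median log2 fold change of the 10 was 0.79. Wt1 (log2 fold change 4.36 ± 0.32 (SE), adjusted p = 3.10e-14), Gata6 (log2 fold change 3.90 ± 0.32 (SE), adjusted p = 8.65e-13) and Runx1 (log2 fold change 2.67 ± 0.17 (SE), adjusted p = 1.58e-15) were higher in 5 of 5 libraries. Early theca-like cells had 57.6, 9.27, 9.7, 6.42 and 10.04 CPM of Wt1 and 28.7, 7.98, 5.54, 4.11 and 7.38 CPM of Gata6, in both cases highest at 2 wk. Lhx9 was lower in Hoxd9-like cells, 3.47 ± 1.42 CPM against 10.1 ± 3.67 CPM (log2 fold change -1.73 ± 0.52 (SE), adjusted p = 0.00615). Tcf21 (0.95 ± 0.19, adjusted p = 6.91e-05) and Foxl2 (0.76 ± 0.11, adjusted p = 4.51e-07) were higher in 5 of 5 libraries and under the fold limit, which Tcf21 passed with total UMI scaling (1.04) and without the 2 wk (1.04) or 6 wk library (1.07). Nr2f2, Gata4 and Nr5a1 were not called, with log2 fold changes of -0.12 ± 0.12, -0.23 ± 0.11 and -0.08 ± 0.11.

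The early and late theca-like groups are given side by side. Nr5a1 was 20.8, 21.5, 24.7, 21.1 and 26.3 CPM in early and 208, 227, 262, 172 and 239 CPM in late theca-like cells. Gata4 was 63.8 ± 7.35 and 139.9 ± 32.9 CPM in the same order, and the ranges of both genes were apart. Tcf21 was 440.4, 84.96, 90.6, 157 and 309.9 CPM in early and 23.8, 10.9, 5.68, 2.37 and 14.6 CPM in late theca-like cells. Foxl2 was 143 ± 42.9 and 38.8 ± 9.2 CPM, and Nr2f2 337 ± 85.7 and 256 ± 74.9 CPM with overlapping ranges. This pair was not tested. Merged without integration, the late theca-like means were 61.8 CPM for Foxl2, 33.4 CPM for Tcf21 (against 11.4 CPM) and 156 CPM for Nr5a1 (against 221 CPM). Of the 907 late theca-like cells, 487 came from the 5 wk library. An unnamed mesenchymal cluster (487 cells in all) led by Gsta2, Sct and Kctd14 lay between the theca groups, with Nr5a1 at 67.98, 83.1, 132, 139 and 107 CPM, Gata4 at 116 ± 21.6 CPM and Tcf21 at 49.1 ± 58.6 CPM.

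The other mesenchymal groups were set apart by Gata6 and Wt1 more than by Nr2f2. Cd24a-like cells had the highest mean of Nr2f2 (423 ± 133 CPM) and, with the theca groups, the lowest of Gata6 (5.66 ± 3.07 CPM) and Wt1 (7.02 ± 5.47 CPM). Col14a1-like cells combined Gata6 (111 ± 48.1 CPM) and Wt1 (185 ± 57.7 CPM) with low Foxl2 (31.8 ± 11.2 CPM) and Gata4 (23.9 ± 4.36 CPM). Nr2f2 means ran only from 251 to 423 CPM over the 9 groups, and each neighbouring pair in that order overlapped.

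**Figure D4:**
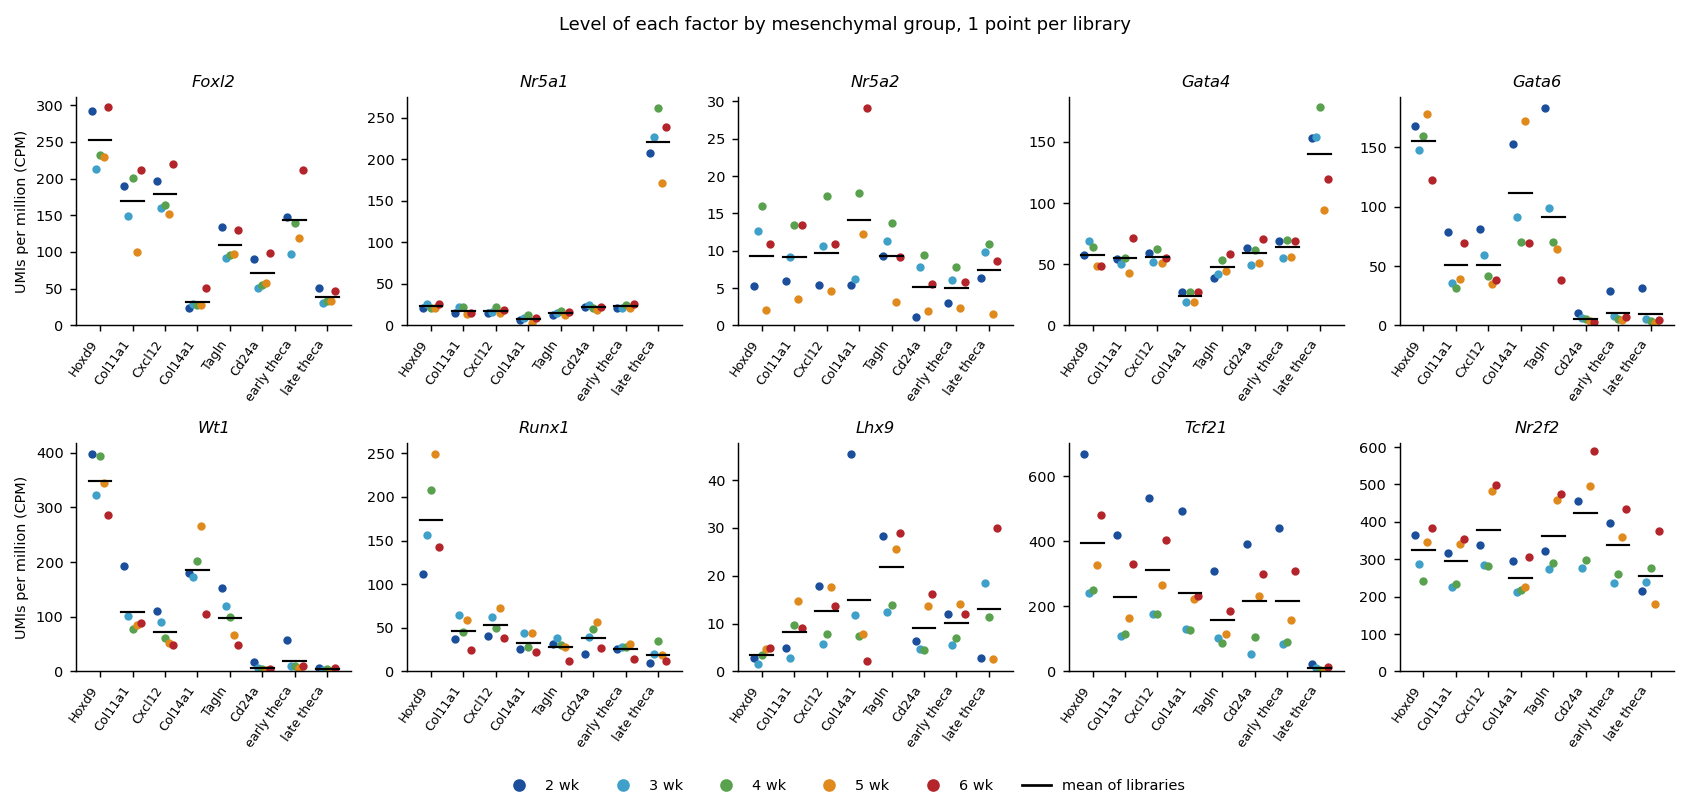
Level of each factor in counts-per-million (CPM, vertical axis, linear, from 0) in 8 mesenchymal groups (horizontal axis), 1 point per library coloured by age, with a black bar at the mean. Wt1, Gata6, Runx1, Foxl2 and Tcf21 have their highest mean in Hoxd9-like cells, and Nr5a1 and Gata4 theirs in late theca-like cells (172 to 262 and 94.4 to 178 CPM).

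Ages can be compared as single libraries only, so no test was made, and the intervals below cover counting error and not differences between animals. The libraries at 2, 3 and 4 wk were counted with Cell Ranger 3.1.0 and those at 5 and 6 wk with 6.0.1, and age and version cannot be told apart there. In granulosa-like cells the highest and lowest age differed at least 2 times for 6 of the 10 factors (Foxl2, Gata4, Gata6, Wt1, Lhx9 and Tcf21), where 25.8% of 13009 genes did. In each of the 6 the highest level was at 2 wk. Over the 5 wk to 2 wk ratio, 5 of 10 factors passed 2-fold, against 11.6% of genes. Among them, Lhx9 (5.45 CPM at 2 wk and 1.92 CPM at 5 wk) and Tcf21 (6.34 and 1.22 CPM) were low at both ages. Tcf21 lay below the hematopoietic-like level in each library, and the part of free RNA in these ratios was not tested. The ratio was 0.368 (95% interval 0.358 to 0.378) for Foxl2, 0.329 (95% interval 0.319 to 0.341) for Wt1 and 0.435 (95% interval 0.418 to 0.453) for Gata4. Runx1 went the other way, at 1.79 (95% interval 1.72 to 1.86), and Nr5a2 stood at 1.12 (95% interval 1.09 to 1.14). The median ratio over genes was 0.972.

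The make-up of the granulosa-like cells differed between those ages. Remodeling-like cells were 2.39% of them at 2 wk and 28.7% at 5 wk, primary-like cells 26.6% and 9.76%, and antral-like cells 5.21% and 11.0%. The antral-like group held 161 cells at 2 wk and is named from markers. The study's whole-ovary counts list no antral follicles up to 2 wk, though the study compares antral clusters at that age. Merged without integration, the antral-like clusters held 4, 15 and 9 cells at 2 wk. Age ratios within granulosa groups were not repeated under the alternatives. Within antral-like cells alone the 5 wk to 2 wk ratio was 0.442 (95% interval 0.397 to 0.492) for Foxl2, 0.396 (95% interval 0.345 to 0.453) for Gata4, 0.374 (95% interval 0.285 to 0.491) for Nr5a1, 0.336 (95% interval 0.262 to 0.43) for Wt1 and 2.35 (95% interval 1.9 to 2.93) for Runx1, and 5 of the 10 factors, against 5.88% of genes, passed 2-fold with at least 20 UMIs in both libraries. Within primary-like cells Foxl2 was at 0.631 (95% interval 0.592 to 0.671) and Gata4 at 0.729 (95% interval 0.66 to 0.804), neither past 2-fold (3.74% of genes were), and Runx1 at 1.77 (95% interval 1.6 to 1.97). Within primordial-like cells Foxl2 was at 0.695 (95% interval 0.604 to 0.798) and Runx1, past 2-fold as 5.15% of genes were, at 2.44 (95% interval 2.09 to 2.84). In remodeling-like cells Foxl2, Gata4, Gata6, Wt1 and Lhx9 passed 2-fold with at least 20 UMIs at the lower age, as did 13.4% of genes. Wt1 was at 0.391 (95% interval 0.332 to 0.463). Lhx9 was 11.8 CPM at 2 wk, on only 9 UMIs, and 1.99 CPM at 5 wk, on 23 UMIs. Foxl2 was thus below 1 and Runx1 above 1 in the primordial-like, primary-like and antral-like groups, and the size of the Foxl2 ratio varied with the stage. Runx1 in remodeling-like cells was near level, at 151 CPM at 2 wk (115 UMIs) and 155 CPM at 5 wk. The remodeling-like group joined a cluster led by S100a6 and Angpt2 to another with Lox and Ghr among its leading genes. The former held 72 cells at 2 wk and 445 at 5 wk, the latter 2 and 314. The ratios in remodeling-like cells thus compare unlike mixtures of cells.

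In stromal-like cells 4 of the 10 factors (Gata6, Wt1, Lhx9 and Tcf21) differed at least 2 times between the highest and lowest age, where 21.4% of genes did. Between 5 and 2 wk 2 passed 2-fold (Wt1 and Tcf21), against 6.33% of genes. Merged without integration, neither Wt1 (0.628) nor Tcf21 (0.55) passed 2-fold, while Runx1 did (2.07). Tcf21 was highest at 2 wk, lowest at 3 wk and high again at 6 wk, as the levels above show, with a 5 wk to 2 wk ratio of 0.438 (95% interval 0.424 to 0.452). The same order of 2 wk over 3 wk held in each mesenchymal group, from Hoxd9-like (667, 241, 249, 328 and 480.2 CPM) to Cd24a-like (391, 52.8, 107, 231 and 300.4 CPM). In hematopoietic-like cells Tcf21 was 117, 5.05, 8.14, 19.7 and 23.4 CPM and Foxl2 96.9, 42.9, 27.1, 27.7 and 39.9 CPM, so that the level outside the source cells moved with age too, and its part in the ratios was not tested. Wt1 stood at 0.47 (95% interval 0.443 to 0.498) in stromal-like, 0.112 (95% interval 0.0714 to 0.167) in early theca-like and 0.867 (95% interval 0.786 to 0.954) in Hoxd9-like cells. The make-up of stromal-like cells differed too, with 18.65% Hoxd9-like cells at 2 wk and 10.9% at 5 wk. In early theca-like cells Wt1 and Tcf21 passed 2-fold with at least 20 UMIs at the lower age, as did 3.51% of genes. Gata6 also passed 2-fold there, but on fewer than 20 UMIs at 5 wk. In Hoxd9-like cells 2 factors passed (Runx1 and Tcf21), against 5.1% of genes. Runx1 was at 1.58 (95% interval 1.47 to 1.69) in stromal-like and 2.24 (95% interval 1.96 to 2.55) in Hoxd9-like cells, and Nr2f2 at 1.04 (95% interval 1.02 to 1.07).

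In surface epithelial-like cells Wt1 had a 5 wk to 2 wk ratio of 0.825 (95% interval 0.741 to 0.918), Gata6 of 0.688 (95% interval 0.587 to 0.805) and Lhx9 of 1.19 (95% interval 1.01 to 1.4), none past 2-fold, as 3.36% of genes were. Runx1 there was at 0.549 (95% interval 0.421 to 0.711), below 1 where its granulosa-like and stromal-like ratios were above 1. Between the 5 ages Lhx9 was lowest at 3 wk (163 CPM) and highest at 6 wk (360.1 CPM), more than 2 times apart. The Foxl2 ratio of 0.284 (95% interval 0.14 to 0.531) rests on 65 and 12 UMIs, under the minimum of 20, at levels near those of hematopoietic-like cells.

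**Figure D5:**
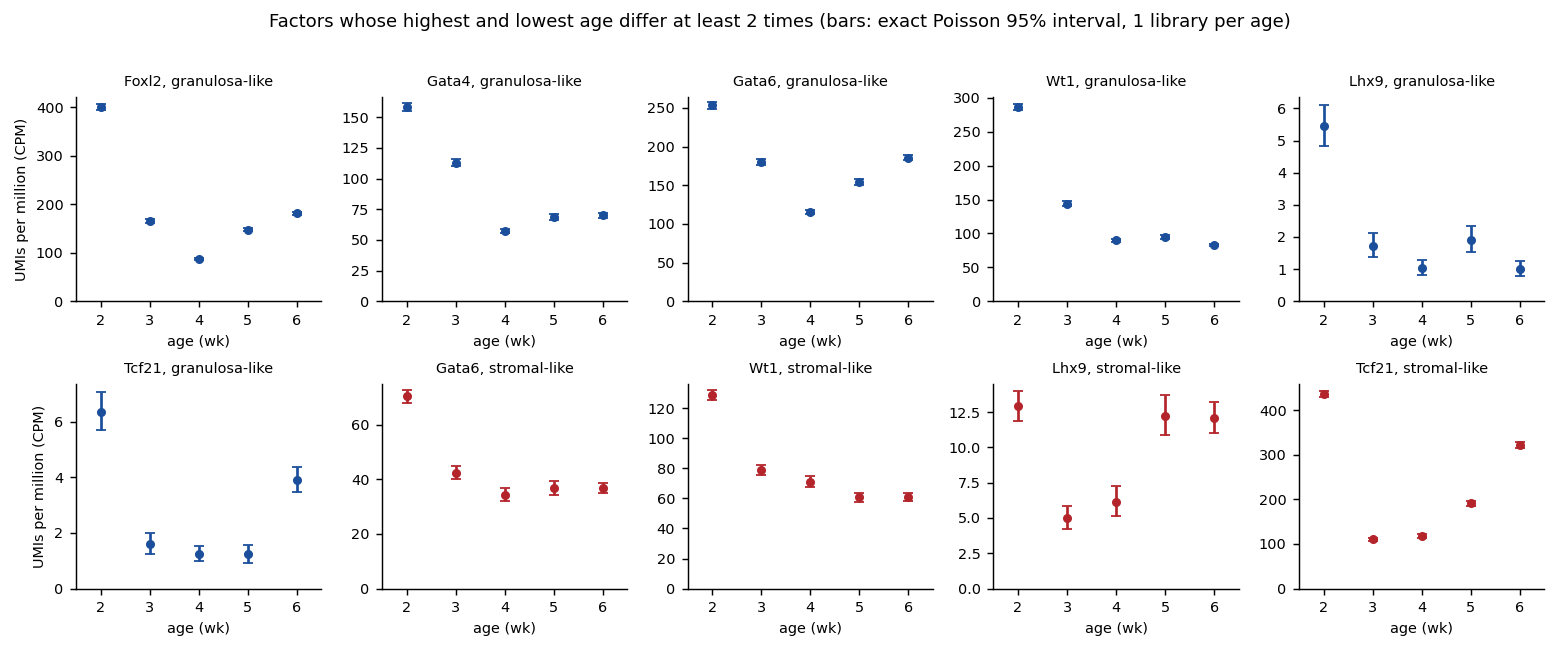
Level in counts-per-million (CPM, vertical axis, linear, from 0) by age in weeks (horizontal axis) for the 6 factors in granulosa-like cells (blue) and the 4 in stromal-like cells (red) whose highest and lowest ages differ at least 2 times, with exact Poisson 95% intervals as bars and 1 library per age. Foxl2 in granulosa-like cells goes from 401 CPM at 2 wk to 87.2 CPM at 4 wk, and Tcf21 in stromal-like cells from 436 CPM at 2 wk to 110.3 CPM at 3 wk.

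Among 32 other transcription factors and cofactors of the gonad, which were not held out of the clustering, 9 of 30 tested were called higher and 17 lower in granulosa-like than in stromal-like cells, with a median log2 fold change of -1.36 against 0.02 over all genes. The values here are log2 fold changes ± SE, and those named are from the 2 largest called in each direction. Over all genes, 11.7% were called higher and 17.5% lower in granulosa-like cells. In the same order the shares were 7.59% and 14.5% in theca-like and 14.3% and 11.4% in surface epithelial-like cells. They were 8.07% and 11.8% in antral-like, 8.42% and 5.5% in remodeling-like and 7.21% and 4.37% in Hoxd9-like cells. Irx3 (5.12 ± 0.30) and Irx5 (4.67 ± 0.32), homeobox genes of the granulosa lineage, were highest, and Osr1 (-6.55 ± 0.53) was lowest. In theca-like cells 3 were higher, led by Nr0b1 (3.21 ± 0.45), the DAX1 repressor that binds Nr5a1, and Irx3 (1.10 ± 0.46), and 11 lower, with Gli2 (-2.84 ± 0.33) and Twist2 (-2.42 ± 0.41) lowest. In surface epithelial-like cells 7 were higher, with Irx3 (7.17 ± 0.33) and Irx5 (6.61 ± 0.37) again first, and 11 lower, with Twist1 (-3.21 ± 0.32) and Nr2f1 (-3.06 ± 0.55) lowest. Between antral-like and primordial-like cells 5 of 25 were higher, with Foxo1 at 1.72 ± 0.20 and Cbx2 at 1.54 ± 0.31, and 9 lower, with Twist1 at -2.32 ± 0.57. Between remodeling-like and antral-like cells 6 were higher, with Maf at 2.47 ± 0.24 and Six4 at 2.28 ± 0.43, and 0 lower. Between Hoxd9-like and early theca-like cells 7 of 26 were higher, with Emx2 at 2.91 ± 0.30 and Meis2 at 1.93 ± 0.24, and 2 lower, Osr1 (-2.61 ± 0.39) and Sox9 (-2.45 ± 0.42).

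Of 11 known targets of these factors, 8 also served to name the classes, so their counts describe the naming in part. The 3 that did not, Fshr (the follicle-stimulating hormone receptor), Hsd3b1 (a steroid dehydrogenase) and Scarb1 (a lipoprotein receptor), are given here, a choice made after their values were seen. Fshr was higher in granulosa-like than in stromal-like cells (5.42 ± 0.35, adjusted p = 1.17e-16) and in antral-like than in primordial-like cells (5.07 ± 0.49, adjusted p = 3.33e-09), and lower in remodeling-like than in antral-like cells (-2.03 ± 0.25, adjusted p = 2.83e-07). Hsd3b1 and Scarb1 were higher in theca-like than in stromal-like cells (6.26 ± 0.45, adjusted p = 1.70e-14, and 2.44 ± 0.20, adjusted p = 3.51e-13). Hsd3b1 was also higher in granulosa-like (3.81 ± 0.40) and antral-like cells (5.07 ± 0.51) and lower in remodeling-like cells (-3.28 ± 0.44), and Scarb1 was higher in antral-like (1.62 ± 0.14) and lower in Hoxd9-like cells (-2.24 ± 0.18), comparisons in which Nr5a1 was not called. Nr5a2 was called in the same direction as Hsd3b1 in the granulosa-like, antral-like and remodeling-like comparisons. Nr5a2 was also called higher in surface epithelial-like cells, where none of these 3 targets was called. Scarb1 was not called in the granulosa-like or remodeling-like comparison. Nr5a2 was not called in the Hoxd9-like comparison. Whether any factor acts on these targets was not tested. Fshr was also higher in theca-like cells (1.57 ± 0.60, adjusted p = 0.0309). That class holds cells of the cluster led by Amh and Nr5a2, of which 48.9% were called doublets. Values of the targets without those cells are not given here, which also limits the theca-like count below. Of all 11, 6 were higher and 2 lower in granulosa-like cells, 10 and 0 in theca-like, 5 and 3 in surface epithelial-like, 9 and 2 in antral-like and 0 and 8 in remodeling-like cells, and of 9 tested 1 was higher and 2 lower in Hoxd9-like cells. The shares over all genes in these comparisons are those given with the other transcription factors above.

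Likeness between genes was read as Pearson's r of log2(CPM + 1) over 21 class means, as a description, since the classes share libraries and genes. Tcf21 and Nr2f2 were alike (r = 0.87), as were Gata6 and Wt1 (0.85) and Nr5a1 and Gata4 (0.71), while Nr5a2 ran against Tcf21 (-0.91) and Nr2f2 (-0.89). Of 13232 genes compared, the nearest to Nr5a2 were Tox2 (0.98), Apoa1 and Sel1l3 (both 0.97), and the nearest to Tcf21 included Lrrc17 and Mfap4, a stromal marker used for naming (both 0.98). Wt1 was nearest to Wt1os (0.95), an RNA gene of the opposite strand whose span lies 18 bases from that of Wt1, and Nr5a1 to Hadh (0.89). Foxl2 was nearest to Gpsm1 (0.91), Gata4 to Timm9 (0.91), Gata6 to Epha7 (0.92), Nr2f2 to Desi2 (0.94), Runx1 to Papd4 (0.84) and Lhx9 to Esr1 (0.82).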

How the data were processed

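The 5 deposited matrices hold raw UMI counts per gene and cell, which the authors made with Cell Ranger, version 3.1.0 for 2 to 4 wk and 6.0.1 for 5 and 6 wk per the file headers. The submitters' processing notes name mm10, Cell Ranger 3.1.0 and Seurat 4.1.0. Ovaries were dissociated with trypsin and live cells sorted. Depth per library was 93438618 to 144609431 UMIs, and intervals cover counting error only.

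Libraries were integrated and clustered in Seurat 5.3.0 (2000 variable genes less the 5 members among them, resolution 1, R 4.3.3), granulosa and mesenchymal cells again. All cells of the tables entered. Scrublet, run through scanpy 1.11.5, marked 1487 cells as doublets, which were kept in the main values and left out as an alternative. A cluster kept a name when at least 3 markers of one list defined it and no other class did. Clusters with median UMIs under 33.3% of their library's, or, in the second clusterings and unless named mitotic-like, with at least 5 cell cycle genes among their top 10, stayed unnamed, and primary and secondary groups with scores within 0.25 were joined. These limits were set after the clusters were seen.

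UMIs were summed per library and class with at least 20 cells. edgeR 4.0.16 (TMM scaling, filterByExpr, quasi-likelihood test, class and library terms) was used as the main test and DESeq2 1.42.0 as an alternative, both checked on simulated data. Per-library CPM carry exact Poisson intervals, ratios exact conditional intervals, and shares come from cells thinned to 3000 UMIs, leaving out shallower cells. Intervals of shares pool the cells of all libraries and do not cover the spread between libraries. Genes were named by a fixed rule: all members, the 2 largest called changes per direction of the other factors, and 3 most similar genes per member. Some values of clusters without a name were added after they were seen. The members and lists were chosen with earlier results of these data known. GENCODE M21 and RefSeq (GRCm38) gave positions and sequences, and none was at hand for Nr5a1, Gata4, Gata6 and Wt1. p-values between classes rest on how class differences vary over these 5 libraries, which differ in age. The library term takes up what all classes of a library share, and the spread is estimated over all named classes of a clustering together. Some genes that the naming rules picked are not reported here.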

Additional observations from a re-analysis of the deposited data

Results flagged for a closer look

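For 13 factors and comparisons the ratio between 2 classes lay above 1 in one library and below 1 in another, with counting intervals off 1 on both sides. Each difference between ages was not tested, since an age has 1 library. Between granulosa-like and stromal-like cells the ratio of CPM was highest at 2 wk and lowest at 4 wk for Foxl2 (2.48 and 0.719), Nr5a1 (1.82 and 0.881) and Gata4 (2.52 and 0.887). Between antral-like and primordial-like cells the same ages were the extremes for Nr5a1 (1.57 and 0.496), Gata4 (1.45 and 0.347) and Gata6 (1.15 and 0.665). Between theca-like and stromal-like cells Lhx9 had a ratio of 3.50 at 3 wk and 0.292 at 2 wk. Between remodeling-like and antral-like cells the ratio was 1.87 at 4 wk and 0.370 at 2 wk for Nr5a1, 1.80 at 3 wk and 0.762 at 5 wk for Gata4, 1.34 at 2 wk and 0.689 at 5 wk for Gata6, and 4.06 at 3 wk and 0.910 at 4 wk for Runx1. Between Hoxd9-like and early theca-like cells it was 1.24 at 3 wk and 0.703 at 6 wk for Gata4 and 1.21 at 3 wk and 0.885 at 6 wk for Nr2f2. No sample of a group was set against others of that group, as each age has 1 library.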

How the results depend on the processing

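The counts of factors called stayed within 1.5 times the main count in all 75 repeats over 6 comparisons and 13 alternatives, as did the counts of class means and age ratios. Of the repeated log2 fold changes of single factors, 725 kept their direction and side of the limits, 6 passed the limits only in the alternative, 2 lost the call and 15 turned. The reversed ones were all of factors not called, except Nr5a2 between theca-like and stromal-like cells. That value was 0.83 without doublets and -0.43 without the cluster led by Amh and Nr5a2, an alternative chosen after seeing the data. With each library left out in turn, Nr5a1 ran from -0.025 (without 2 wk) to 0.25 between granulosa-like and stromal-like cells and from -0.023 (without 4 wk) to 0.42 between remodeling-like and antral-like cells, and it turned to 0.0041 with total UMI scaling in Hoxd9-like cells. Between surface epithelial-like and stromal-like cells it was -0.018 without doublets, -0.092 merged without integration and -0.030 with no filter on low counts, and ran from -0.21 (without 2 wk) to 0.21 with single libraries left out. Lhx9 in theca-like cells ran from -0.022 (without 3 wk) to 0.86. Gata6 between antral-like and primordial-like cells was -0.16 merged and -0.095 with total UMI scaling, and ran from -0.019 (without 2 wk) to 0.13. Merged without integration, which left 3 libraries with both groups, Tcf21 (-0.052) and Foxl2 (-0.077) turned between remodeling-like and antral-like cells. The 5 wk to 2 wk ratio of Nr5a1 in stromal-like cells was 0.789 when merged. Those of Wt1 (0.628) and Tcf21 (0.55) in these cells then fell short of 2-fold, and that of Runx1 (2.07) passed it. Of the repeated age ratios 64 stayed within their counting interval and 15 moved beyond it. The cause was not tested in any of these.

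With total UMI scaling the median log2 fold change of all genes moved from 0.02 to 0.17 in granulosa-like and from -0.10 to 0.15 in surface epithelial-like cells against stromal-like cells, and from 0.00 to -0.14 between antral-like and primordial-like cells. With no filter on low counts, 2837 genes were called higher and 3594 lower in granulosa-like cells, against 1628 and 2432, because more genes were tested. Of the 240 class means, 19 moved beyond their SD under some alternative, among them Nr5a2 in theca-like cells (29.7 to 17.1 CPM without doublets). No paired analysis was possible because each age has 1 library, as far as ages are compared. The comparisons of classes were paired within libraries throughout. Classes of few cells limit the depth, as in hematopoietic-like cells (51 and 50 cells at 2 and 3 wk), and lower levels could not be told from free RNA.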
